A study of Mus musculus with 6 samples.

Results

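The genes described here are 9 genes of retinoic acid metabolism and response in the mouse lung: Stra6, Rdh10, Dhrs3, Aldh1a1, Aldh1a2, Aldh1a3, Aldh1a7, Cyp26b1 and Rarb. They were picked by name from the 54532 genes of the deposited count table, with earlier results of these data known, and all 9 were found there. All 9 also passed the filter on low counts that left 18689 genes for testing. The libraries come from whole lungs, perfused to clear the blood, of 3 WT and 3 ISM1-/- mice, all C57BL/6J, untreated and 2 months old. Both alleles of Ism1, which encodes the secreted protein isthmin 1, are disrupted in ISM1-/- mice, and the comparison asks how the resting lung differs without it. WT animals were bought from a supplier whereas the ISM1-/- line was made in the authors' own facility, and the effects of genotype and of origin cannot be told apart. The labels number the libraries 1 to 3 in each group and name no mouse, so the p-values measure the spread between these libraries.

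Retinoic acid is the active form of vitamin A and acts as a ligand of nuclear receptors that bind DNA and switch target genes on or off. Cells take up retinol, oxidize it reversibly to retinal, oxidize retinal irreversibly to retinoic acid, and clear retinoic acid by hydroxylation. In the lung, retinoic acid is best known for its part in airway branching and in the formation of alveoli. Several genes of the pathway are themselves switched on by retinoic acid, with Rarb, Dhrs3, Stra6 and the Cyp26 genes among the usual examples.

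Total counts ranged from 37606133 to 42345042 per library, and no pair of libraries of a group agreed within sampling noise. The targeted gene, Ism1, was counted in every library, with 3098, 3215 and 2975 counts in WT and 2784, 2508 and 2953 in the libraries labelled ISM1-/-. The log2 fold change of Ism1 (libraries labelled ISM1-/- over WT, as for every fold change given here) was -0.19 (SE 0.0709, adjusted p = 0.217 by edgeR's quasi-likelihood test). Counts cover the whole gene and not a deleted part alone, so they show no loss of Ism1 that would check the labels. Without ISM1-/- replicate 3 the value was -0.26 (edgeR adjusted p = 0.0356). Marker genes of alveolar, airway and endothelial cells were present in all libraries. WT replicate 1 stood apart by its cardiomyocyte markers, with a summed 1724 CPM (counts scaled to a common library size) against 584 to 692 in the other WT libraries and 329 to 617 in the libraries labelled ISM1-/-.

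Of the 9 genes, Dhrs3 and Rarb were lower in the libraries labelled ISM1-/- at an adjusted p under 0.1 and none was higher (edgeR's quasi-likelihood test). Over all genes tested, 4.72% passed that threshold, 3.34% as lower and 1.38% as higher. The differences were small: Rarb stood at 74.9% and Dhrs3 at 85.8% of the WT mean, and no gene of the 9 both changed by 2-fold and passed the threshold, which 0.567% of all genes did (0.284% higher and 0.284% lower). At an unadjusted p under 0.05 there were 4 genes, Rarb, Dhrs3, Aldh1a7 and Cyp26b1, all with negative values. At that p 15.8% of all genes passed, 9.3% as lower and 6.48% as higher. The same 9 genes gave 3 calls with DESeq2, all lower (Dhrs3, Rarb and Aldh1a7), where 6.88% of all genes were called. Groups did not overlap for 4 genes, all lower, where 21.6% of all genes did not overlap, 12.3% being lower and 9.33% higher, and 7 of the 9 had a fitted value below 0, against 48.8% of all genes. The median log2 fold change of the 9 genes was -0.22, against 0.00 over all genes tested. The lung is a mixture of cells, and fewer cells of a type and less RNA per cell cannot be told apart in these bulk libraries.

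**Figure D1:**
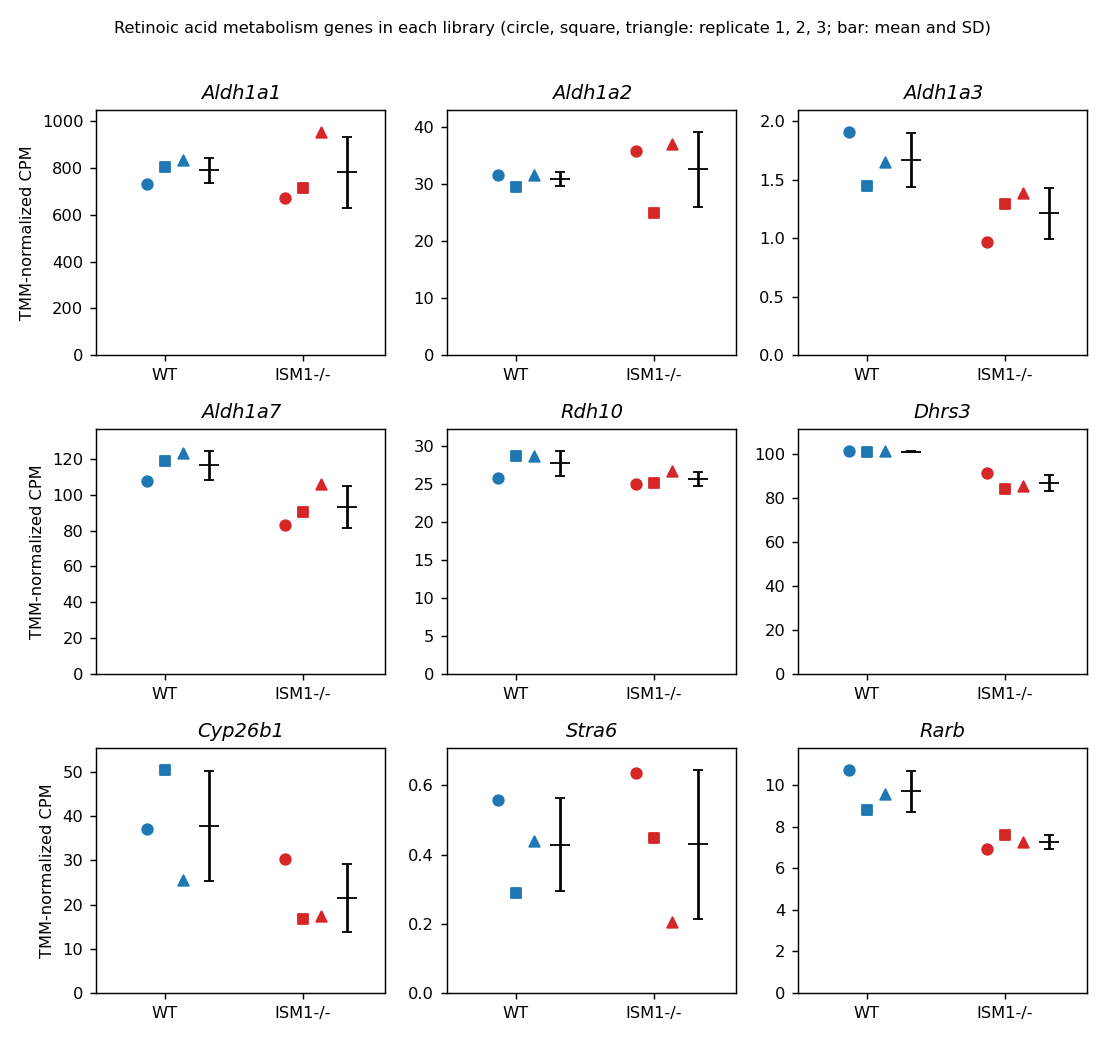
CPM after TMM scaling (vertical axes, from 0) of each of the 9 genes in each library, with WT in blue and the libraries labelled ISM1-/- in red, and the mean and SD over 3 libraries as black bars. The 3 red points lie below the 3 blue points for Aldh1a3, Aldh1a7, Dhrs3 and Rarb, and the groups overlap for the other 5 genes.

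Stra6, the cell surface receptor that takes up retinol from its carrier in blood, was barely detected. It had 21, 12 and 17 counts in WT and 27, 17 and 8 in the libraries labelled ISM1-/-, on chromosome 9 (58063788 to 58153996, plus strand, GRCm38). The groups overlapped and the means were equal at 0.429 CPM, with SDs of 0.134 and 0.216 (n = 3 each). The log2 fold change was 0.020 with a 95% interval of -0.98 to 1.01 (edgeR adjusted p = 0.991), and a difference within that interval was not detectable at this depth. Ccdc33, a gene on the opposite strand that overlaps the span of Stra6 but none of its exon bases, had a mean of 508 counts and was lower (log2 fold change -0.53, edgeR adjusted p = 0.0225).

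Rdh10 and Dhrs3 encode the pair of enzymes that set the balance between retinol and retinal, Rdh10 as the dehydrogenase that makes retinal and Dhrs3 as the reductase that turns it back. Dhrs3 (chromosome 4, 144892827 to 144928209, plus strand) had 3808, 4175 and 3912 counts in WT and 3869, 3181 and 3319 in the libraries labelled ISM1-/-. After scaling for library size these were 101, 101 and 101 CPM in WT and 91.0, 83.8 and 85.1 CPM in the libraries labelled ISM1-/-. The WT libraries lay within 1 CPM of each other and all above the others. The log2 fold change was -0.22 (SE 0.0563, 95% interval -0.35 to -0.094, edgeR adjusted p = 0.0792). The call held at an adjusted p under 0.1 in DESeq2 (adjusted p = 0.0322) and was lost when any library but ISM1-/- replicate 3 was left out, where the adjusted p rose to between 0.137 and 0.245 while the log2 fold change stayed between -0.25 and -0.20.

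Rdh10 (chromosome 1, 16105774 to 16133734, plus strand) had 971, 1186 and 1107 counts in WT and 1061, 954 and 1041 in the libraries labelled ISM1-/-. The groups overlapped, with means of 27.7 ± 1.64 and 25.6 ± 0.948 CPM (SD, n = 3 each). For Rdh10 the log2 fold change was -0.11 (95% interval -0.27 to 0.045, edgeR adjusted p = 0.494). Of the enzymes listed beside them, 13 of 20 alcohol dehydrogenases, retinol dehydrogenases and carotenoid oxygenases were tested and none passed. The most abundant were Adh1 and Adh5, which oxidize alcohols including retinol. Adh1 had 94.7 ± 4.14 CPM in WT and 81.5 ± 4.44 CPM in the libraries labelled ISM1-/- (log2 fold change -0.22, edgeR adjusted p = 0.120), values close in size to those of Dhrs3 but short of the threshold. Adh5 was at 0.052 (edgeR adjusted p = 0.773). Bco1, which cleaves beta-carotene to retinal, had 17 to 27 counts in WT and 9 to 15 in the libraries labelled ISM1-/- (-0.98, edgeR adjusted p = 0.217). At an unadjusted p under 0.05, 2 of the 13 were lower and none higher, and DESeq2 called 1, Adh1, as lower.

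The 4 Aldh1a genes encode cytosolic aldehyde dehydrogenases. Aldh1a1, Aldh1a2 and Aldh1a3 are the retinal dehydrogenases that make retinoic acid, and Aldh1a7 is a rodent relative of Aldh1a1 that is usually described as having little activity on retinal. Aldh1a1 and Aldh1a7 lie near each other on chromosome 19 on opposite strands, Aldh1a1 at 20492715 to 20643462 (plus) and Aldh1a7 at 20692953 to 20727562 (minus). Their messages are so alike that the reads of the pair can only be told apart at the bases where they differ. The first 150 coding bases of each, from the GENCODE M21 transcripts on GRCm38, are printed 5′ to 3′ because the reading of the Aldh1a7 values rests on them. Capitals mark the 10 bases that differ.
Aldh1a1 coding: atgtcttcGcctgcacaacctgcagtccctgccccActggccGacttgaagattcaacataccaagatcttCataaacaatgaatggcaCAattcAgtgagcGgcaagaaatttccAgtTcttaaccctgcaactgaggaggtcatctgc
Aldh1a7 coding: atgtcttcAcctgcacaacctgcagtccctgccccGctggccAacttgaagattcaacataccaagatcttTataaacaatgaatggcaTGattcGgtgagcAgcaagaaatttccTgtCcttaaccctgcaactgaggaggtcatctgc

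Over their whole coding sequences Aldh1a1 and Aldh1a7 were 91.9% identical (1380 of 1501 aligned bases), whereas the other pairs of Aldh1a genes were 69.7 to 71.8% identical. Over the whole transcripts, the longest run of bases that the pair shared was 100, shorter than a read of 150 bases. Of the 1904 windows of 150 bases in the Aldh1a1 transcript, 0 occurred in the Aldh1a7 transcript. How the authors' counting treated reads that match both genes is not given in the sources used here, so the split between them carries that uncertainty.

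Aldh1a1 was by far the most abundant gene of the set, with 27523, 33336 and 32279 counts in WT and 28640, 27105 and 37221 in the libraries labelled ISM1-/-. The groups overlapped, and ISM1-/- replicate 3 was the highest of all 6 libraries at 954 CPM. The means were 789 ± 53.7 and 781 ± 152 CPM (SD, n = 3 each), the log2 fold change was -0.016 (SE 0.119, 95% interval -0.28 to 0.25, edgeR adjusted p = 0.971), and its sign turned when some libraries were left out (-0.18 to 0.082).

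Aldh1a7 had 4052, 4924 and 4761 counts in WT and 3524, 3426 and 4137 in the libraries labelled ISM1-/-. Every WT library, at 107 to 123 CPM, lay above every library labelled ISM1-/-, at 82.9 to 106 CPM. Aldh1a7 thus had a log2 fold change of -0.32 (SE 0.0917, 95% interval -0.53 to -0.12), and its edgeR adjusted p of 0.108 fell just short of the threshold. DESeq2 called it lower at the same size (-0.32, adjusted p = 0.0270). Leaving out 1 library at a time gave edgeR adjusted p values from 0.0174, without ISM1-/- replicate 3, to 0.317, without ISM1-/- replicate 1, and the gene was also called without WT replicate 1 (0.0993).

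The ratio of the neighbours varied less than either gene. There were 14.7, 14.8 and 14.7 Aldh1a7 counts for each 100 Aldh1a1 counts in WT and 12.3, 12.6 and 11.1 in the libraries labelled ISM1-/-. The SD of the ratio was 0.0244 in WT and 0.801 in the libraries labelled ISM1-/- (n = 3 each). The 3 WT values lay within 0.1 of each other and the groups did not overlap. ISM1-/- replicate 3, which had the highest Aldh1a1 level of all libraries, had the lowest ratio. The ratio was formed after the levels had been seen and is given without a test.

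The promoters of the pair are alike as well. The 250 bases before the start of Aldh1a7 (chr19:20727557-20727806, minus strand) and before the downstream start of Aldh1a1 (chr19:20601718-20601967, plus strand), from RefSeq on GRCm38.p6, were 75.9% identical over 232 aligned bases. They shared an unbroken run of 65 bases, in capitals here, both printed 5′ to 3′. The window before the upstream start of Aldh1a1 (chr19:20492333-20492582) was 62.2% identical to that of Aldh1a7, with no shared run over 8 bases.
Aldh1a1: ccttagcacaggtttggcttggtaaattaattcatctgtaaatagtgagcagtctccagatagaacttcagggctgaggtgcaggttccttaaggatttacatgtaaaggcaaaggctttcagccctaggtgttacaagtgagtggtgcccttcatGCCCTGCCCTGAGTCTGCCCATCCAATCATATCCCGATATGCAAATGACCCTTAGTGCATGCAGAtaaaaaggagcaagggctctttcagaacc
Aldh1a7: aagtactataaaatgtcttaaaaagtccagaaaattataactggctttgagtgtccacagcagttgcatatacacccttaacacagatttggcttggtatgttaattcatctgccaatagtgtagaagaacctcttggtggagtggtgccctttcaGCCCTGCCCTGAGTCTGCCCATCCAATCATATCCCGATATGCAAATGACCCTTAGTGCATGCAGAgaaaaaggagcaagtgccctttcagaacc

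The remaining Aldh1a genes were less abundant. Aldh1a2, the main source of retinoic acid in the embryo (chromosome 9, 71215789 to 71296243, plus strand), had 1192, 1221 and 1220 counts in WT and 1518, 948 and 1442 in the libraries labelled ISM1-/-. The WT values lay close together, while the libraries labelled ISM1-/- spread to both sides of them (30.9 ± 1.25 and 32.5 ± 6.58 CPM, SD, n = 3 each), and the log2 fold change was 0.078 (95% interval -0.21 to 0.36, edgeR adjusted p = 0.838). Aldh1a3 (chromosome 7, 66390890 to 66427517, minus strand) had 72, 60 and 64 counts in WT and 41, 49 and 54 in the libraries labelled ISM1-/-. The groups did not overlap, but at these counts the difference was not separated from 0 (log2 fold change -0.46, SE 0.225, 95% interval -0.96 to 0.041, edgeR adjusted p = 0.363). No pair with Aldh1a2 or Aldh1a3 shared a run of more than 26 bases over the whole transcripts.

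Levels of different genes were set side by side by the deposited FPKM (fragments scaled by gene length and library size). Summed over the 4 Aldh1a genes, FPKM came to 694, 759 and 792 in WT and 636, 668 and 871 in the libraries labelled ISM1-/-, with overlap between groups (748 ± 49.6 and 725 ± 128, SD, n = 3 each). Aldh1a1 held 90.5% of the sum in WT and 91.7% in the libraries labelled ISM1-/-, and Aldh1a7 held 7.54 ± 0.0261% and 6.23 ± 0.388%. These shares depend on the lengths the authors divided by, which for Aldh1a1 was 1168 bases and not the 4934 of the table's own length column. By that column the share of Aldh1a7 was 24.5% in WT and 20.8% in the libraries labelled ISM1-/-. It was lower in the latter by either length.

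By the same FPKM values the order of the 9 genes in WT was Aldh1a1 (677 ± 46.0), Dhrs3 (79.2 ± 0.344), Aldh1a7 (56.4 ± 3.90), Aldh1a2 (13.7 ± 0.572), Cyp26b1 (10.2 ± 3.37), Rdh10 (9.99 ± 0.588), Rarb (6.46 ± 0.660), Aldh1a3 (1.14 ± 0.159) and Stra6 (0.312 ± 0.0982; SD, n = 3 each). Cyp26b1 overlapped with both of its neighbours in that order in WT. In the libraries labelled ISM1-/- it had 8.28, 4.53 and 4.66 FPKM, all below the 9.04 to 9.47 FPKM of Rdh10, so that this pair stood in the other order. There it also overlapped with Rarb (4.63, 5.06 and 4.74 FPKM). All other neighbours in the WT order were separate within each group. By the table's length column Aldh1a7 came before Dhrs3. The synthesizing enzyme Aldh1a1 thus exceeded the degrading enzyme Cyp26b1 in FPKM in every library.

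Beyond the Aldh1a genes, 15 other aldehyde dehydrogenases were tested. None was called higher (1.38% of all genes were) and 4 were called lower (3.34% of all genes were). They were Aldh1l1, of folate metabolism (28.6 ± 2.98 and 19.9 ± 0.760 CPM, log2 fold change -0.52, edgeR adjusted p = 0.0189), Aldh3a1, of aldehyde detoxification in epithelia (-0.55, 0.0327), and the mitochondrial enzymes Aldh4a1 of proline breakdown (-0.27, 0.0556) and Aldh5a1 of GABA breakdown (-0.47, 0.0504). At an unadjusted p under 0.05, 8 of the 15 were lower and none higher, where 9.3% and 6.48% of all genes were. Groups did not overlap for 9, all lower, as 12.3% of all genes were. Of the 15, 14 had values below 0, against 48.8% of all genes, and the median was -0.19. None of these is a retinal dehydrogenase. The most abundant, Aldh2, which clears acetaldehyde, was at -0.16 (edgeR adjusted p = 0.191), and Aldh3a2, of fatty aldehyde oxidation, at 0.049 (0.745). Of the 4, only Aldh1l1 was called without each library in turn. Aldh3a1 kept its call without WT replicate 1 and without ISM1-/- replicate 3, Aldh5a1 without WT replicate 3, ISM1-/- replicate 2 and ISM1-/- replicate 3, and Aldh4a1 without ISM1-/- replicate 3. Their adjusted p values otherwise reached 0.137, 0.177 and 0.193.

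**Figure D2:**
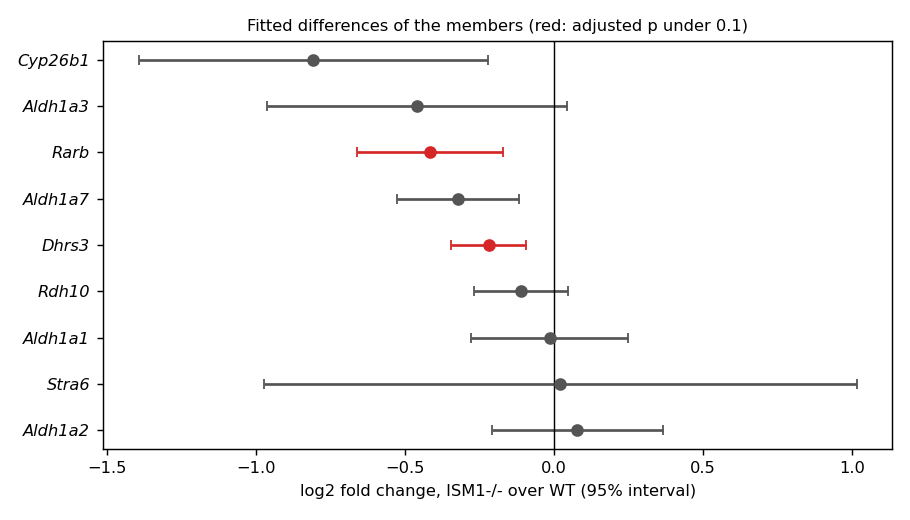
Fitted log2 fold change (libraries labelled ISM1-/- over WT, horizontal axis) of each of the 9 genes with its 95% interval, in red where the edgeR adjusted p was under 0.1. The intervals of Cyp26b1, Rarb, Aldh1a7 and Dhrs3 lie below 0, and that of Stra6 is the widest.

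Cyp26b1, the hydroxylase that clears retinoic acid, had the largest fitted difference of the 9 genes and also a large spread. It lies on chromosome 6 (84571414 to 84593908, minus strand) and had 1399, 2097 and 991 counts in WT and 1293, 634 and 682 in the libraries labelled ISM1-/-. In CPM these were 37.1, 50.5 and 25.6 in WT and 30.4, 16.7 and 17.5 in the libraries labelled ISM1-/-. ISM1-/- replicate 1 lay between WT replicates 1 and 3, so the groups overlapped. Cyp26b1 had a log2 fold change of -0.81 (SE 0.263, 95% interval -1.39 to -0.22) with an edgeR adjusted p of 0.159. The gene passed the threshold without WT replicate 3 (-1.02, edgeR adjusted p = 0.0978) and without ISM1-/- replicate 1 (-1.14, 0.0868), and fell back to -0.54 (0.451) without WT replicate 2.

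The other Cyp26 genes and Cyp2c39 were too low to test. Cyp2s1, a cytochrome P450 of airway epithelium that can also metabolize retinoic acid, was lower. It had 5549, 6516 and 5841 counts in WT and 4955, 4242 and 4307 in the libraries labelled ISM1-/-, with no overlap after scaling (152 ± 4.95 and 113 ± 3.22 CPM, SD, n = 3 each). Its log2 fold change was -0.43 (SE 0.0553, edgeR adjusted p = 0.0108), and it was called without each library in turn (adjusted p 0.00785 to 0.0686).

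Rarb encodes retinoic acid receptor beta, one of the nuclear receptors that retinoic acid binds, and is the receptor gene that retinoic acid is known to switch on. It lies on chromosome 14 (16430839 to 16819156, minus strand). The 250 bases before its RefSeq start (chr14:16575477-16575726, minus strand, GRCm38.p6) are printed 5′ to 3′ because they hold the kind of element through which retinoic acid receptors act. That start lies inside the gene span, downstream of its end at 16819156, and the counts cover the whole gene without separating its starts. In capitals is a direct repeat of 2 half-sites with 5 bases between them, 53 to 37 bases before the start.
Rarb: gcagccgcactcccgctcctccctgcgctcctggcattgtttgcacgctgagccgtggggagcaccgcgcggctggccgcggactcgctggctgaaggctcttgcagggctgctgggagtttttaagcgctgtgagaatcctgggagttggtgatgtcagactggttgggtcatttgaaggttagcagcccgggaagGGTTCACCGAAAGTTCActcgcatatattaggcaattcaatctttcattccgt

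The search took any pair drawn from the half-site AGGTCA, the forms of it that read AGTTCA or that read GGGTCA, and the form with both changes, GGTTCA, in the same direction, on either strand, with 5, 2 or 1 bases between them. A repeat with 5 bases between, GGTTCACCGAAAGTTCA in Rarb, was found in 29 of 32851 RefSeq promoter windows of that length (0.0883%). Windows were on hand for 7 of the 9 genes, all but Aldh1a3 and Rdh10. Rarb was the only one with a match at 5 bases, and none of the 7 had one at 2 (0.174% of windows) or 1 (0.164%). Such a match is a run of letters, and binding was not measured here.

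Rarb had 405, 365 and 370 counts in WT and 295, 289 and 283 in the libraries labelled ISM1-/-. Scaled, these were 10.7, 8.79 and 9.57 CPM in WT and 6.94, 7.62 and 7.25 CPM in the libraries labelled ISM1-/-. All 3 libraries labelled ISM1-/- lay below all 3 WT libraries. The log2 fold change was -0.42 (SE 0.109, 95% interval -0.66 to -0.17, edgeR adjusted p = 0.0866; DESeq2 adjusted p = 0.0461). The call was lost with limma on log2(FPKM + 0.1) (adjusted p = 0.105) and when any library but ISM1-/- replicate 3 was left out, with adjusted p values of 0.144 to 0.257 and log2 fold changes of -0.48 to -0.34. The end of Rarb shares 1793 of its 5265 annotated exon bases with Top2b on the opposite strand, which had a mean of 7335 counts and a log2 fold change of 0.12 (edgeR adjusted p = 0.414). The libraries were strand-specific, but the strand setting of the counting is not given in the sources used here, so reads of Top2b may be among those of Rarb.

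Of the other receptors of retinoic acid and 9-cis-retinoic acid, all 5 were tested and none passed in edgeR, with 1 lower and none higher at an unadjusted p under 0.05 and 1 called lower by DESeq2, in each case Rxrg. Rarg was at -0.029 (edgeR adjusted p = 0.920) and Rxra at -0.087 (0.538), each above 100 CPM in both groups. Rxrg, a receptor gene of muscle and brain, had 83, 39 and 49 counts in WT and 26, 19 and 33 in the libraries labelled ISM1-/- (log2 fold change -1.16, SE 0.356, edgeR adjusted p = 0.137). Its highest value was in WT replicate 1, the library with the high cardiomyocyte markers, and without that library it stood at -0.75 (0.335). Rarb was also highest there and stood at -0.34 (0.218) without it. All 12 cardiomyocyte markers had values below 0, with a median of -1.07, 11 were lower at an unadjusted p under 0.05 and 1 was called by edgeR and by DESeq2. Their summed level averaged 46.6% of WT in the libraries labelled ISM1-/-. The edgeR count was 4 without ISM1-/- replicate 3 and 0 without any of the other libraries. The part of these markers in either value was not tested. Of the 9 genes, 1 (Aldh1a7) was called without WT replicate 1, where 3.62% of all genes were called.

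Apart from the 9 genes, 21 genes that retinoic acid is known to induce were listed. The list leaves out Rarb (log2 fold change -0.42), Dhrs3 (-0.22), Cyp26b1 (-0.81) and Stra6 (0.020), which are usual examples of such genes. Of the 21, 18 were tested and none passed with edgeR or DESeq2, with values from -0.14 to 0.25 and a median of 0.021. At an unadjusted p under 0.05 there was 1 higher and none lower. Tgm2, the tissue transglutaminase and the most abundant of them, had 508 ± 43.2 CPM in WT and 533 ± 6.18 CPM in the libraries labelled ISM1-/- (log2 fold change 0.068, edgeR adjusted p = 0.702). Rarres2, which encodes the chemoattractant chemerin, was at 0.18 (0.295) and Nrip1, a receptor corepressor, at -0.11 (0.441).

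Carriers and stores of retinoids gave 1 gene higher and 1 lower of 12 tested. At an unadjusted p under 0.05, 3 were higher and 3 lower (6.48% and 9.3% of all genes), and DESeq2 called 2 higher and 1 lower. Rbp4, which encodes the retinol carrier of blood, had 557, 657 and 699 counts in WT and 454, 454 and 483 in the libraries labelled ISM1-/-, without overlap (16.2 ± 1.69 and 11.7 ± 0.888 CPM, SD, n = 3 each). Its log2 fold change was -0.48 (SE 0.102, edgeR adjusted p = 0.0451), and it kept its call without WT replicate 1 (0.0494) or ISM1-/- replicate 3 (0.0339) but not without any of the other libraries (0.133 to 0.160). Crabp1, a cytosolic binding protein of retinoic acid, had 29, 30 and 26 counts in WT and 95, 73 and 43 in the libraries labelled ISM1-/-. Every library labelled ISM1-/- was above every WT library, but replicate 3 by far less than the others. Its log2 fold change was 1.28 (SE 0.291, edgeR adjusted p = 0.0534), with calls without WT replicate 1 (0.0993) and ISM1-/- replicate 3 (0.0117) and adjusted p values of 0.154 to 0.189 without any of the others. Lpl, a lipase that also frees retinol from circulating lipid particles, was at -0.32 (0.271) and the lipid-binding Fabp5 at -0.030 (0.898).

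Over the 5 lists of retinoid genes together, 49 of 65 genes were tested beside the 9, of which 1 was higher (Crabp1) and 2 lower (Rbp4 and Cyp2s1), with a median of -0.019. At an unadjusted p under 0.05 there were 4 higher and 7 lower, and DESeq2 called 2 higher and 4 lower. With 3 of 49 called, the lists lie near the 4.72% of all genes that were called, and nothing particular to them is read from these counts.

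**Figure D3:**
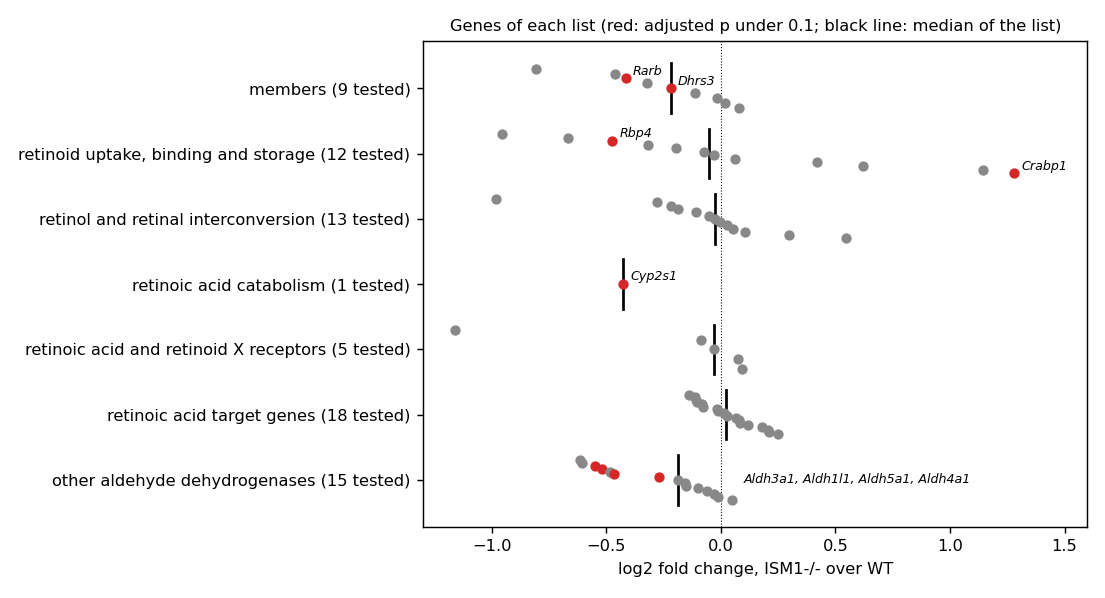
Fitted log2 fold change (libraries labelled ISM1-/- over WT, horizontal axis) of each tested gene in each list, with genes at an edgeR adjusted p under 0.1 in red and named, and the median of each list as a black line. The target genes of retinoic acid lie between -0.14 and 0.25 with none in red, and 14 of the 15 other aldehyde dehydrogenases lie below 0.

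Markers of several cell types differed between the groups along with these genes. For the marker counts given here and below, 3.34% of all genes were called lower and 1.38% higher. Of 9 markers of club and secretory airway cells, 7 were lower and none higher, and their summed level was 24876 to 26825 CPM in WT and 16407 to 20471 CPM in the libraries labelled ISM1-/-. They were the secretoglobins Scgb1a1 (log2 fold change -0.51) and Scgb3a2, Cyp2f2 (-0.42), Cldn10, Bpifa1 (-0.82), Gabrp and Hp. None of the 7 was called without WT replicate 2 (edgeR adjusted p of 0.110 to 0.195), and 2, 3 and 4 were called without ISM1-/- replicate 2, ISM1-/- replicate 1 and WT replicate 3. Of 7 ciliated cell markers, 6 were lower (739 to 835 and 646 to 662 CPM), a count that was 1 without WT replicate 2, 2 without WT replicate 3 or either of ISM1-/- replicates 1 and 2, and 3 without WT replicate 1. Club cells are a known site of Aldh1a1 and Cyp2s1. Cyp2s1 lay below WT in all libraries labelled ISM1-/-, as 12.3% of all genes did, whereas Aldh1a1 overlapped with WT. The part of airway cells in any of these values was not tested.

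Among the mesenchymal lists, 5 of 9 markers of adventitial fibroblasts were called lower and none higher. They were Pi16 (-0.97), Dcn (-0.54), Dpt (-0.26), Serpinf1 (-0.57) and Clec3b (-0.40). Of the 9, 8 had values below 0 and the highest value was 0.10. Groups did not overlap for 6 as lower and for 1 as higher. The summed level of the 9 was 874 to 933 CPM in WT and 725 to 813 CPM in the libraries labelled ISM1-/-. Without ISM1-/- replicate 1 the count fell to 2, Pi16 and Serpinf1, and it was 3 without ISM1-/- replicate 2 or WT replicate 2. Dpt kept its call only without ISM1-/- replicate 3. None of the 10 markers of alveolar fibroblasts was called by edgeR or DESeq2 (1 higher at an unadjusted p under 0.05), and their summed level was 4451 to 4605 and 4646 to 4847 CPM. Of 9 mesothelial markers 1, Upk1b, was called higher by edgeR (0.35, adjusted p = 0.0817), 2 were called higher by DESeq2 and 3 were higher at an unadjusted p under 0.05. Upk1b was called by edgeR without ISM1-/- replicate 2 but not without any of the other libraries. The mesothelial list had summed levels of 477 to 532 and 485 to 592 CPM. Adipocyte markers were lower for 8 of 9 genes, with 177 to 218 CPM in WT and 55.3 to 107 CPM in the libraries labelled ISM1-/-, and Rbp4 and Lpl are both strongly expressed in fat. The count was 4 without WT replicate 2 or either of ISM1-/- replicates 1 and 2, and 5 without WT replicate 3. None of the 8 alveolar type 2, 9 endothelial and 7 alveolar macrophage markers was called by edgeR or DESeq2, where 1 was lower, 2 were higher and 1 was lower, in that order, at an unadjusted p under 0.05. Of 7 alveolar type 1 markers 1, Rtkn2, was higher, a call lost without WT replicate 2 or any of the libraries labelled ISM1-/-. The part of these cells in the values of Rbp4, Dhrs3 and Rarb was not tested. No marker was at 0 in all libraries.

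**Figure D4:**
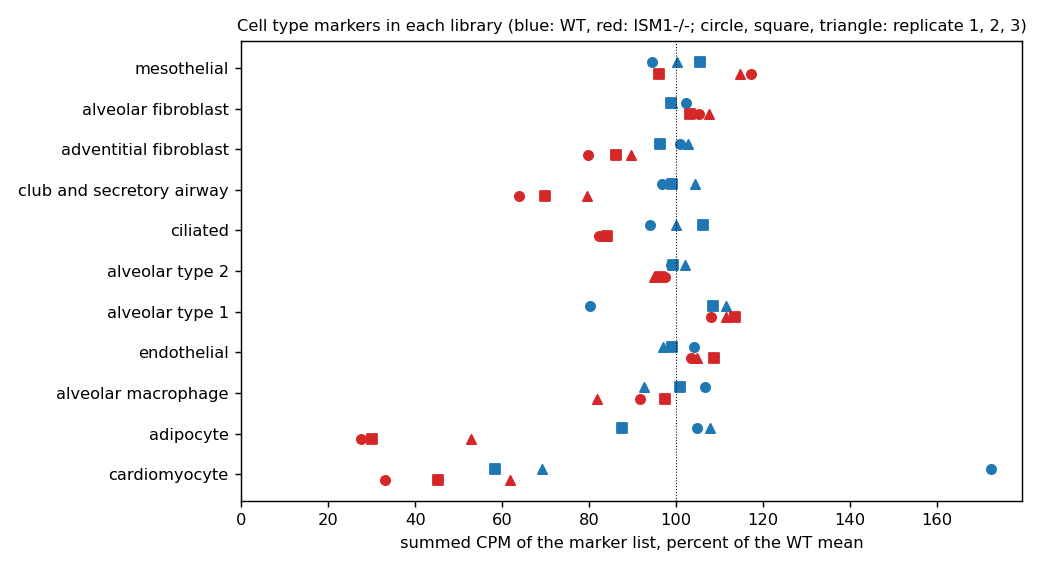
Summed CPM of each list of cell type markers in each library, as percent of the WT mean (horizontal axis, from 0), with WT in blue and the libraries labelled ISM1-/- in red. Club, ciliated, adventitial fibroblast and adipocyte markers lie lower in all red libraries (means of 71.0%, 83.4%, 85.2% and 36.8% of WT), and WT replicate 1 stands at 172% for cardiomyocyte markers. By less, alveolar type 2 markers also lie lower (mean of 96.2%) and alveolar fibroblast markers higher (105%) in all red libraries.

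The genes whose profile over the 6 libraries lay nearest to the 2 called genes were looked up among the 15876 tested genes whose mean reached 1 CPM. Likeness was the root mean square distance between log2 CPM values, each centred on its own mean. Nearest to Dhrs3 were Map7d3 (0.0237), Dapk1 (0.0239) and Usp20 (0.0252). Dapk1, a death-associated protein kinase, had 171, 174 and 176 CPM in WT and 152, 146 and 149 CPM in the libraries labelled ISM1-/-. Nearest to Rarb were Esrrg (0.0390), the muscle gene Myom3 (0.0397) and Masp1 (0.0407). Esrrg, an orphan nuclear receptor, had 5.07, 3.88 and 4.37 CPM in WT and 3.34, 3.53 and 3.36 CPM in the libraries labelled ISM1-/-, highest in WT replicate 1 as Rarb was.

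The calls of the 4 genes with the lowest p values were set side by side under each way of processing. Dhrs3 was called under all 8 alternatives that kept all 6 libraries and Rarb under 5 of them. Aldh1a7 was called under 3 and Cyp26b1 under 2. All had a negative value under every one, also with 1 library left out.

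**Figure D5:**
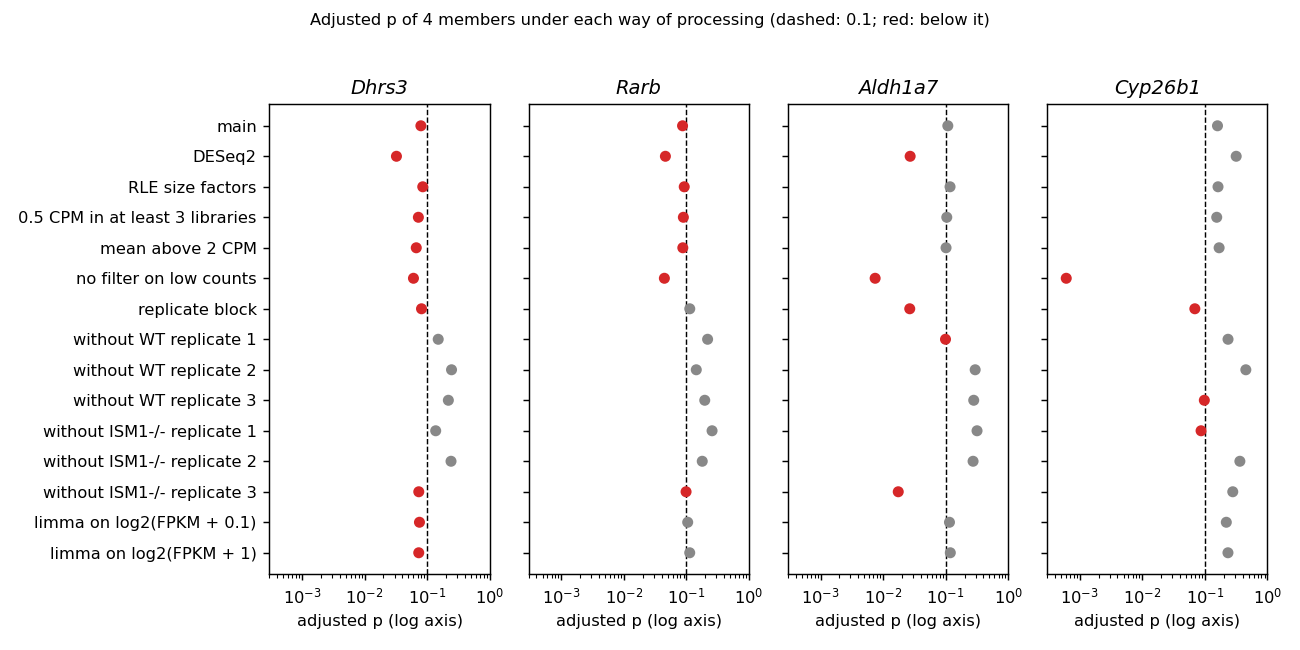
Adjusted p (horizontal log axes) of Dhrs3, Rarb, Aldh1a7 and Cyp26b1 under each way of processing and without each library, in red where it was under 0.1 (dashed line). With a library left out, Dhrs3 and Rarb are in red only without ISM1-/- replicate 3, while Aldh1a7 also passes without WT replicate 1 and Cyp26b1 passes without WT replicate 3 or ISM1-/- replicate 1.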

How the data were processed

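RNA was measured in whole lungs of 3 WT and 3 ISM1-/- mice, grouped by the genotype label. The authors enriched poly-A RNA, made strand-specific libraries, sequenced them in read pairs and mapped them with STAR to GRCm38. They deposited raw counts per gene, as whole numbers without normalization, and FPKM values that divide the counts by library total and a gene length. The counting program, annotation and strand setting are not given in the sources used here. Gene spans are those of the deposited table, and 8 of the 9 agree in span with GENCODE M21.

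Genes that reached 0.5 CPM in 1 or more libraries were scaled by TMM and compared by the quasi-likelihood test of edgeR 4.0.16 in R 4.3.3, with Benjamini-Hochberg adjustment over all 18689 genes and a threshold of 0.1. SEs are the log2 fold change over the root of F. Mean ± SD values are of TMM-scaled CPM unless FPKM is named. Total counts of 37606133 to 42345042 per library set the precision of the low genes. The members and gene lists were chosen with earlier results of these data known. Named were all 9 genes, Ism1, overlapping genes, the called genes of the lists (of the marker lists, only the mesothelial, fibroblast and club ones) with the 2 most abundant and the 2 of lowest p in each retinoid or aldehyde dehydrogenase list, and the 3 nearest profiles of each called gene. Rtkn2 was named after its values were seen.

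The alternatives were DESeq2 1.42.0, RLE size factors, other filters, the replicate number as a block, each library left out, limma 3.58.1 on log2(FPKM + 0.1) and log2(FPKM + 1), and other thresholds. On simulated counts for these 18689 genes, edgeR recovered 87 of 100 genes changed by 1 on the log2 scale and 61 of 100 changed by 0.5. The changed genes were drawn only from those above a minimum mean count, so this recovery does not cover genes as low as Stra6. RefSeq promoters (GRCm38.p6) and GENCODE M21 transcripts were aligned with Biopython 1.88.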

Additional observations from a re-analysis of the deposited data

How the results depend on the processing

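All 4 genes with an unadjusted p under 0.05 had negative values under every alternative. Over the 9 genes, 58 of the single-gene comparisons with an alternative that kept all libraries stayed on their side of the threshold with their sign, 5 passed it, 3 no longer did and 3 turned sign. Aldh1a7 passed with DESeq2 (log2 fold change -0.32, adjusted p = 0.0270), without a filter on low counts (-0.33, 0.00745) and with the replicate block (-0.33, 0.0266). Cyp26b1 passed without a filter (-0.81, 0.000607) and with the replicate block (-0.81, 0.0690). Rarb was lost with the replicate block (-0.41, 0.113) and with limma on log2(FPKM + 0.1) (-0.41, 0.105) and log2(FPKM + 1) (-0.36, 0.113). Stra6 turned sign with the block (-0.029) and limma (-0.052 and -0.0046). The cause was not tested. Deviations of same-numbered libraries from their group means had correlations of -0.040, 0.031 and 0.0010. With 3 libraries in each group such values cannot exclude a pairing, and the labels name none. With the block 3 of the 9 genes were called, as were 5.91% of all genes.

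Leaving out 1 library at a time leaves an arm of 2 libraries, and the spread was estimated again from the libraries that remained. Log2 fold changes then ranged from -0.18 to 0.082 for Aldh1a1 (0.026 without WT replicate 3, 0.045 without ISM1-/- replicate 2). They ranged from -0.021 to 0.24 for Aldh1a2, from -0.43 to -0.24 for Aldh1a7 and from -0.25 to -0.20 for Dhrs3. For Cyp26b1 the range was -1.14 to -0.54, and for Stra6 -0.38 to 0.35 (-0.20 without WT replicate 2, -0.0059 without ISM1-/- replicate 2). Rarb ranged from -0.48 to -0.34 and Ism1 from -0.26 to -0.15. Of the genes named from the lists, Rarg ranged from -0.11 to 0.030, positive without WT replicate 2 or ISM1-/- replicate 3 (0.027), and Fabp5 from -0.084 to 0.052, positive without WT replicate 1.

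Of the 9 genes, 2 were called. The count was 4 without a filter (5.11% of all genes were called there), 1 with either limma fit (3.64% and 3.66%), 0 at an adjusted p under 0.05 and 0 to 3 with 1 library left out (0.806% to 7.91%). Over all genes 258 were higher and 624 lower. With DESeq2, no filter, the block, an adjusted p under 0.05 and a 2-fold minimum, 466, 566, 399, 113 and 53 were higher, and without a filter, at 0.05 and at 2-fold, 1066, 342 and 53 were lower. With 1 library left out 35 to 570 were higher and 115 to 900 lower, fewest without WT replicate 2 and most without ISM1-/- replicate 3. In the retinoid lists, 1 higher became 2 with DESeq2 or the block, 3 without a filter, 0 with a mean above 2 CPM or at 0.05, and 0 to 1 with 1 library left out, and 2 lower became 4 with DESeq2, 5 without a filter and 1 to 4 with 1 library left out. Stra6 had at most 27 counts in a library and the widest interval of the 9 genes. RLE size factors moved the median of all genes from 0.0043 to 0.0092.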
